A study of Mus musculus with 12 samples.

Results

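The response of cultured medulloblastoma cells to 12 h of panobinostat (LBH589), an inhibitor of histone deacetylases, was described across all genes that could be named on the array. Its differences come from 6 arrays of the 12 in the series: 3 cultures given 25 nM LBH589 for 12 h and 3 given 0.00025% DMSO, the solvent, for 12 h. The cells, called MP, model Group 3 medulloblastoma driven by MYC in mice; medulloblastoma is a malignant tumour of the cerebellum. They were taken from the cerebella of NSG mice, which lack most lymphocyte immunity, dissociated to single cells and plated in a neural stem cell medium with a proliferation supplement. Each treatment was given to cells of the tumours MP525, MP567 and MP570, so every LBH589 array has a DMSO array of its own tumour and time. The 6 arrays of 6 h, with the same tumours and treatments, entered the same model. They add to the estimate of spread behind the 12 h errors and p-values, and otherwise serve for comparison. The labels name tumours and do not say whether cultures were repeated. Since the tumour is a block in the model, the spread between tumours is taken out. The p-values measure how unevenly differences between groups ran across these 3 tumours, over both times. The comparison was made by the study to learn how inhibition of histone deacetylases kills such cells.

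Of 41345 probe sets on the array, 23521 name exactly 1 gene. They stand for 22180 genes, 18652 of which were bright enough to be tested. All values are log2 expression values as deposited, differences are log2 values in LBH589 minus those in DMSO, and errors of differences are standard errors of the limma model with the tumour as a block. Values of the 3 arrays of a group are given in the order MP525, MP567 and MP570. A gene was called higher or lower at a Benjamini-Hochberg adjusted p under 0.05 over all 18652 genes. Adjusted p-values below are from this limma model. Signal differs between probe sets for reasons other than abundance, so levels are compared between arrays and not between genes.

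Histone deacetylases remove acetyl groups from histone tails and from many other proteins, and work mainly inside corepressor complexes such as NuRD, CoREST, SIN3 and NCoR. When they are blocked, acetylation rises across chromatin, some silent or weakly used genes are switched on, and many strongly transcribed genes driven by large enhancers lose output. In tumour cells such inhibitors are known for raising the cell cycle inhibitor p21, for arrest in the cell cycle and for cell death through the BH3-only proteins of the BCL2 family. Histone deacetylase activity is also needed for full transcription of interferon-stimulated genes, although acetylation is commonly thought of as activating.

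Among the 12 h arrays, LBH589 and DMSO lay on opposite sides of principal component 1 (50.5% of the variance) in all 3 tumours, MP567 stood out on component 2 (23.3%), and MP525 and MP570 parted on component 3 (14.1%). At 12 h, 3471 genes were called higher (18.6% of those tested) and 3457 lower (18.5%), together 6928 or 37.1%. Of these, 6757 moved the same way in all 3 tumours. Most changes were small: 364 genes rose and 327 fell by at least 1 on the log2 scale, and 13 and 13 by at least 2. The median over all tested genes was 0.0057. Array medians of the deposited values were nearly equal (7.10 to 7.21), so a shift shared by most genes could be hidden. Such a shift was not tested. Every count of list members below is to be read against these background shares. Without the block 3395 genes were called.

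The largest rises at 12 h among the genes of the naming rule were those of Cpt1a, the HSP70 genes Hspa1b and Hspa1a, and Rian. Cpt1a encodes the carnitine acyltransferase that controls entry of long-chain fatty acids into mitochondria. Its log2 values were 7.48, 7.96 and 7.06 in DMSO and 10.59, 10.55 and 10.43 in LBH589. All LBH589 arrays lay far above all DMSO arrays, and the rise of 3.02 ± 0.13 (8.12-fold, adjusted p = 3.07e-08) was the largest at 12 h. Hspa1b and Hspa1a, which encode inducible HSP70, rose by 2.76 ± 0.14 and 2.55 ± 0.20 and are described with the chaperones below. Rian, a noncoding RNA made from the maternal copy of the imprinted Dlk1-Dio3 region, had values of 7.19, 6.26 and 8.15 in DMSO and 9.63, 9.03 and 10.87 in LBH589. The tumours kept their order under treatment, with MP567 lowest and MP570 highest, and Rian rose by 2.64 ± 0.14 (6.24-fold, adjusted p = 5.70e-08). Copz2, a subunit of the coat of vesicles that return from the Golgi, rose by 2.34 ± 0.20. Slc8b1, the sodium-calcium exchanger of mitochondria, read 8.63, 8.34 and 8.36 in DMSO and 10.75, 10.68 and 10.44 in LBH589. These groups were 4.53-fold apart with little spread (2.18 ± 0.088, adjusted p = 2.47e-08).

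Gas6, the secreted ligand of the TYRO3, AXL and MERTK receptor kinases, rose from 7.11, 7.59 and 6.96 in DMSO to 9.30, 9.56 and 9.24 in LBH589, a difference of 2.15 ± 0.16 (adjusted p = 4.51e-07). One of its receptors, Mertk, was also called higher (0.80 ± 0.13). Tspan17, a tetraspanin that helps to carry the protease ADAM10 to the cell surface, rose by 2.14 ± 0.15, and Crip1, a small LIM-domain protein, by 2.09 ± 0.13. Fxyd7, a brain regulator of the sodium pump, rose by 2.06 ± 0.22 with differences of 1.45, 1.94 and 2.79 in the 3 tumours. Nup62cl, a relative of the nuclear pore protein NUP62, rose by 1.99 ± 0.16, and Chchd10, a protein of the mitochondrial intermembrane space, by 1.98 ± 0.11. Adjusted p-values of these 12 rises ran from 2.47e-08 to 9.28e-06. A small nucleolar RNA, a microRNA and a clone name, 3 in all, rose at least as much as the smallest of these 12 and were left out by the naming rule.

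**Figure D1:**
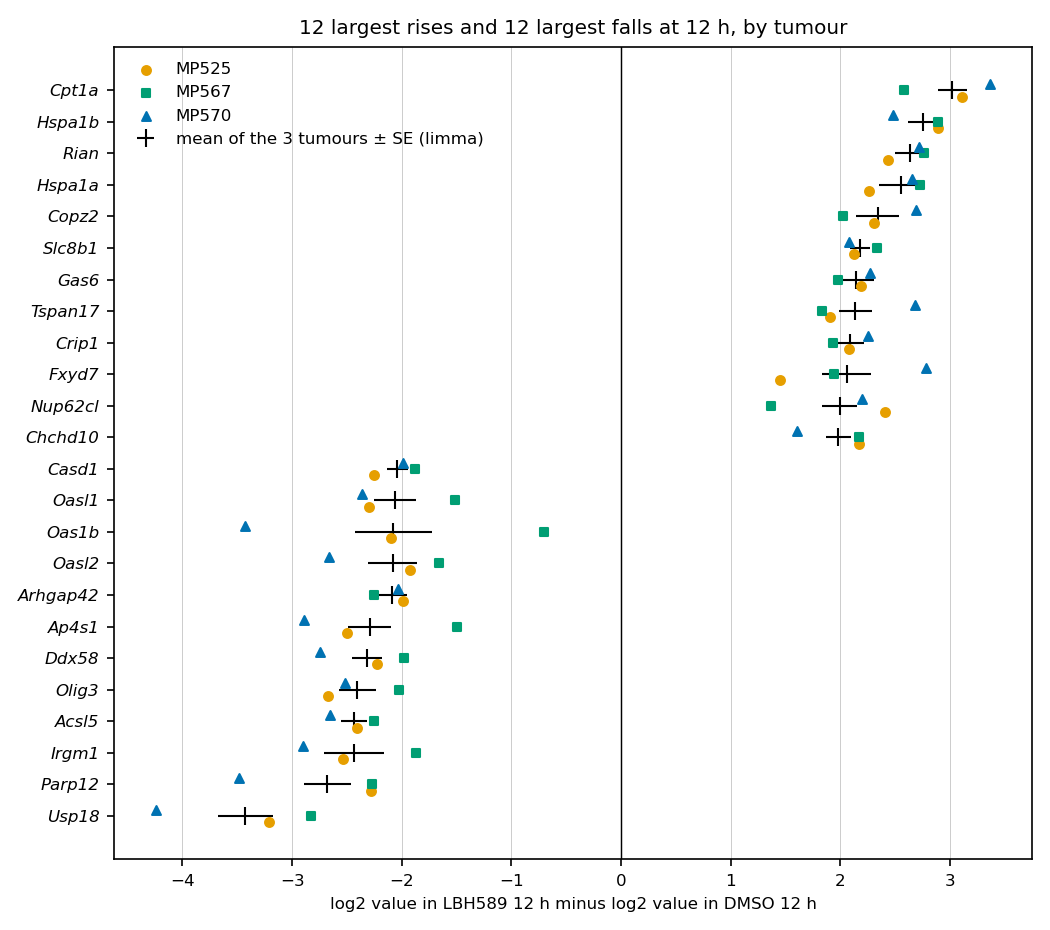
Differences in log2 value between LBH589 and DMSO at 12 h for the 12 largest rises and 12 largest falls, with 1 symbol per tumour and a black tick with a bar for the mean of the 3 tumours and its standard error (limma). All differences lie on the side of their mean, since only genes with 1 direction in all tumours were chosen. Oas1b and Usp18 spread most between tumours among the falls and Fxyd7 and Nup62cl among the rises.

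Among the 12 largest falls, 7 were genes of the interferon response, given below, and 5 were not. Acsl5, a ligase that activates long-chain fatty acids, had values of 9.59, 9.44 and 9.57 in DMSO and 7.18, 7.19 and 6.92 in LBH589. The groups stood more than 2 log2 units apart in each tumour, and the fall was -2.44 ± 0.12 (5.41-fold, adjusted p = 4.0e-08). Olig3, a bHLH transcription factor of the progenitors of the dorsal hindbrain, read 11.27, 10.55 and 10.33 in DMSO and 8.60, 8.52 and 7.81 in LBH589. Its difference was -2.40 ± 0.17 (adjusted p = 2.97e-07). Ap4s1, the small subunit of the AP-4 sorting adaptor, fell by 2.29 ± 0.20, with 2 of its 3 LBH589 arrays under the array's 25th percentile, so the size of that fall is poorly measured. Arhgap42, a GTPase-activating protein, fell by 2.09 ± 0.14, and Casd1, the enzyme that adds O-acetyl groups to sialic acids, by 2.04 ± 0.095 (adjusted p = 2.58e-07 and 3.28e-08).

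Genes that interferons switch on fell together, and they held the steepest falls of the whole comparison. Of 38 tested interferon-stimulated genes, 31 were called lower and 0 higher, against 18.5% and 18.6% of all genes, and their median was -0.81. Usp18, a protease that strips ISG15 from proteins and damps the type I interferon receptor, had values of 11.43, 10.93 and 12.03 in DMSO and 8.22, 8.10 and 7.78 in LBH589. It fell by 3.43 ± 0.25 (10.8-fold, adjusted p = 4.40e-07), the largest change of any named gene, and the LBH589 arrays all lay more than 2 log2 units under the DMSO array of their tumour. Parp12, an antiviral ADP-ribosyltransferase, read 9.94, 10.01 and 10.97 in DMSO and 7.66, 7.74 and 7.49 in LBH589. That was a fall of 2.68 ± 0.21 (adjusted p = 8.24e-07). Irgm1, an immunity-related GTPase, read 8.82, 7.80 and 9.12 in DMSO and 6.29, 5.93 and 6.22 in LBH589, so its fall of 2.44 ± 0.27 ended near the array's dim end, with 1 LBH589 array under the 25th percentile. Oasl2 and Oasl1, relatives of the antiviral oligoadenylate synthetases, fell by 2.08 ± 0.22 and 2.06 ± 0.19. Oas1b, listed by RefSeq as a transcribed pseudogene, fell by 2.08 ± 0.35 with differences of -2.10, -0.70 and -3.43, the widest spread of this family. The sequences of Oas, Ifit and Irgm family members are alike, so their probe sets may share signal, and how much was not tested.

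Other members with large falls were the GTPases Irgm2 (-1.96 ± 0.21) and Igtp (-1.87 ± 0.26), the chaperone Rtp4 (-1.48 ± 0.19), the kinase PKR, gene Eif2ak2 (-1.40 ± 0.21), and Ifit1, which binds viral RNA ends (-1.18 ± 0.13). At the other end of the list, Trim30a (-0.38), Ifi27 (-0.37), Herc6 (-0.35), Cmpk2 (-0.31), Ube2l6 (-0.15), Isg20 (-0.10) and Mx1 (-0.058) did not pass the test. The factors that carry the interferon signal moved in both directions: of 18 tested, 9 were called higher and 4 lower, with a median of 0.15. Irf7, the master regulator of interferon genes, had values of 9.23, 9.01 and 10.37 in DMSO and 7.67, 7.58 and 7.68 in LBH589. Irf9, the DNA-binding subunit of the ISGF3 complex, had 9.45, 9.45 and 9.97 in DMSO and 7.48, 8.27 and 7.69 in LBH589. Both fell in every tumour, by 1.89 ± 0.22 and 1.81 ± 0.15 (adjusted p = 1.54e-05 and 1.25e-06), and Irf2, a repressor of the same elements, fell by 0.57 ± 0.095. Stat2, the partner of IRF9, had a difference of 0.032 that did not pass the test (adjusted p = 0.874). The receptor subunit Ifnar2 fell by 0.51 ± 0.088 while Ifnar1 rose by 0.32 ± 0.087. Stat3, Irf8, Socs3 and Irf3 rose by 1.17 ± 0.073, 0.91 ± 0.090, 0.69 ± 0.13 and 0.51 ± 0.10.

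Sensors of foreign nucleic acid were lower in part, with 5 of 16 called lower and 1 higher (median -0.14). Ddx58, the gene of RIG-I, which senses viral RNA, read 9.92, 9.64 and 10.21 in DMSO and 7.70, 7.66 and 7.46 in LBH589. Its fall of 2.32 ± 0.14 (4.98-fold, adjusted p = 1.07e-07) was the largest of this list, followed by Zc3hav1, an antiviral zinc finger protein (-1.22 ± 0.12), and the endosomal receptor Tlr3 (-0.77 ± 0.16). The adaptor Ticam1 rose by 0.71 ± 0.10, while the DNA sensor Cgas (-0.19), Sting1 (-0.20) and Mavs (0.19) did not pass. Genes of MHC class I presentation, which interferons also raise, did not follow: 4 of 19 were called higher and 3 lower (median -0.023). Mr1, which presents vitamin B metabolites to T cells, rose from 6.45, 6.84 and 6.46 to 8.37, 8.50 and 8.34, a difference of 1.82 ± 0.12, and the class I heavy chain H2-K1 rose by 1.15 ± 0.15. The peptide-trimming protease Erap1 and the immunoproteasome subunit Psmb10 fell by 0.91 ± 0.10 and 0.64 ± 0.12.

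**Figure D2:**
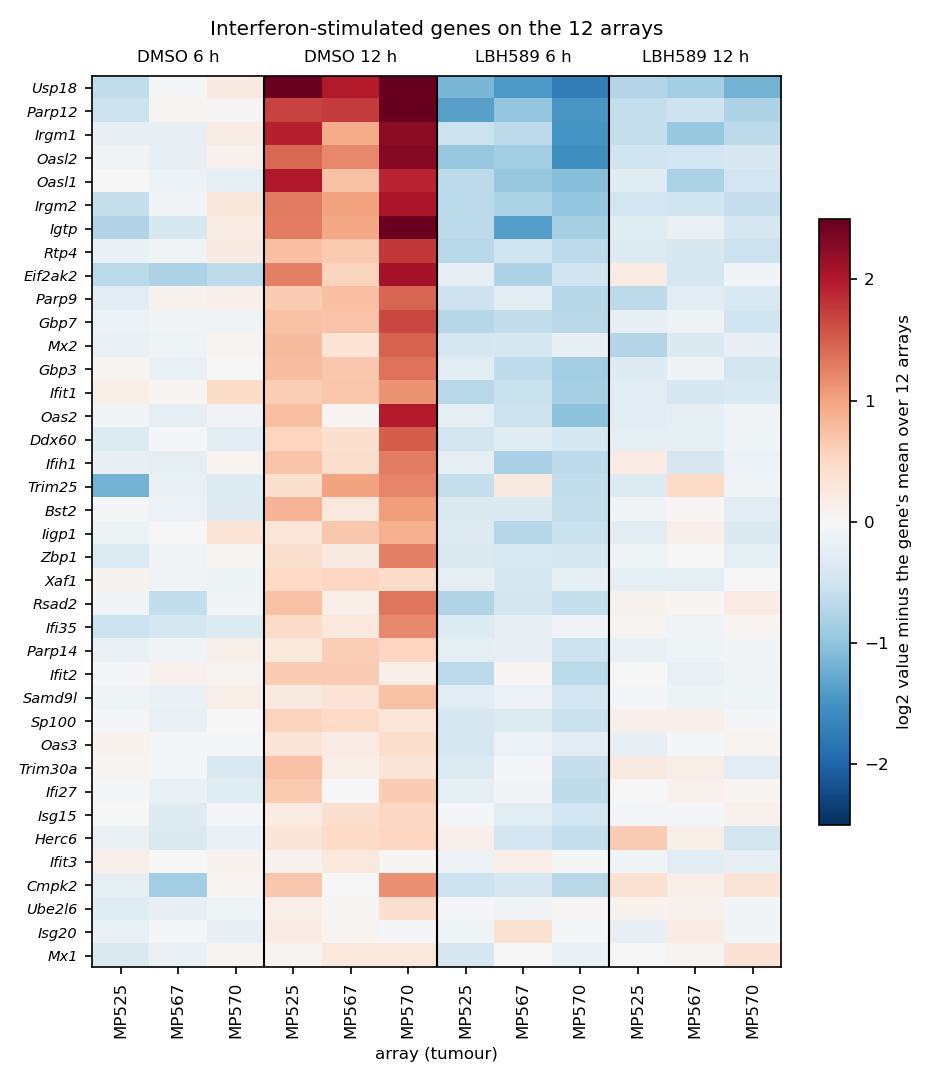
Log2 values of the 38 tested interferon-stimulated genes on each of the 12 arrays, each gene minus its mean over the 12 arrays, with colours cut at 2.5 on either side and genes ordered by their difference at 12 h. The 3 DMSO 12 h arrays are high for most genes, and the other 9 arrays lie lower.

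The level in the solvent itself changed for these genes. Between 6 h and 12 h in DMSO, 20 of the 38 interferon-stimulated genes rose (median change 0.94), when 58 of all 18652 genes, 0.311%, were called in that comparison. Single tumours weighed on this: without MP525 13 of all genes were called and 3 of these 38 rose, without MP570 17 and 10, and without MP567 41 and 15. With no block the counts were 4 and 2, with the tumour as a random block 23 and 13, and without the mean-variance trend 28 and 10. Usp18 read 8.35, 8.91 and 9.17 in DMSO at 6 h and 11.43, 10.93 and 12.03 at 12 h, a change of 2.65 ± 0.25 (adjusted p = 0.000416). In LBH589 the same tumours read 7.81, 7.53 and 7.23 at 6 h and 8.22, 8.10 and 7.78 at 12 h. The drop under LBH589 at 12 h is thus measured against a solvent level that had climbed since 6 h. The same DMSO 12 h arrays enter this change and the LBH589 effect, so they are not independent. Why these genes rose in DMSO was not tested.

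The core of the interferon-stimulated response element, GAAANNGAA, the DNA letters to which ISGF3 and other IRF factors bind, was counted in promoters. Promoter windows of 250 bases before to 50 after the start were at hand from RefSeq (GRCm38.p6) for 28 of the 38 genes, and 17 of them (60.7%) held the letters on either strand, against 8.53% of 14381 tested genes with a window. Of these 17, 16 were called lower at 12 h, when 31 of all 38 list members were. The called share among all genes with the letters was not counted. In interferon signalling 22.2% of 18 windows and in MHC class I presentation 25.0% of 16 held it. The 250 bases before the start of Irgm1, one of the steepest falls, and of Ifit1, chosen after its values were seen, are shown with the matches in capitals. Both runs are written 5' to 3' on the strand of the gene. In Irgm1 (minus strand) 2 matches overlap, and in Ifit1 (plus strand) 3 matches lie on the opposite strand.
Irgm1, chr11:48871421-48871670: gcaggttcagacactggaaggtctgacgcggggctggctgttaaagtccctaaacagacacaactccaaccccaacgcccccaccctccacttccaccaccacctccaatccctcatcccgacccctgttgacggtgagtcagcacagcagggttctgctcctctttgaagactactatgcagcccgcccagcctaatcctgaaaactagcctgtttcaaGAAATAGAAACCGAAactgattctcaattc
Ifit1, chr19:34640639-34640888: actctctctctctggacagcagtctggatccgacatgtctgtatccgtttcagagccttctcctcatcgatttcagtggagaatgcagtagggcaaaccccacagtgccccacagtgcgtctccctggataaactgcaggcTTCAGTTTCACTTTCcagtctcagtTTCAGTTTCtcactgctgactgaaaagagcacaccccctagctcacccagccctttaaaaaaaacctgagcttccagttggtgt

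Cell cycle genes fell broadly, by smaller amounts than the interferon genes. Of 35 tested genes of mitosis and G2/M, 29 were called lower and 1 higher (median -0.49). Plk1, the kinase that drives entry into and exit from mitosis, had values of 11.89, 11.99 and 11.98 in DMSO and 10.93, 11.08 and 11.04 in LBH589. The 6 arrays fell into separate ranges less than 0.2 wide, and the fall was 0.94 ± 0.061 (adjusted p = 1.70e-07). Anln, which builds the cytokinetic furrow, fell by 0.84 ± 0.082, and the centromere proteins Cenpa and Cenpe by 0.78 ± 0.10 and 0.78 ± 0.096. Aurkb, Cdk1, Foxm1 and Mki67 fell by 0.60 ± 0.075, 0.53 ± 0.068, 0.45 ± 0.11 and 0.44 ± 0.11. The exception was Pttg1, securin, which guards sister chromatids until anaphase and rose by 0.65 ± 0.11.

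The replication list showed the same direction, with 26 of 39 called lower and 3 higher (median -0.42). Rrm2, the regulated subunit of ribonucleotide reductase, read 11.30, 11.35 and 10.99 in DMSO and 10.07, 10.45 and 9.72 in LBH589 and fell by 1.14 ± 0.11 (adjusted p = 2.76e-06). E2f7, a repressor that acts late in S phase, the helicase subunit Mcm3 and the clamp loader subunit Rfc5 fell by 0.90 ± 0.080, 0.86 ± 0.15 and 0.83 ± 0.075. Prim2, Gins2 and E2f2 rose by 0.52 ± 0.069, 0.39 ± 0.12 and 0.33 ± 0.11. In DNA repair and checkpoints 23 of 35 were called lower and 2 higher (median -0.44). Nbn, a subunit of the complex that senses broken ends, had values of 8.69, 9.36 and 8.74 in DMSO and 7.74, 7.89 and 7.22 in LBH589 and fell by 1.32 ± 0.12. The checkpoint kinases Chek1 and Wee1 fell by 1.09 ± 0.10 and 0.99 ± 0.097, and Xrcc5, the end-joining protein KU80, by 0.90 ± 0.093 (adjusted p = 2.15e-06 to 6.22e-06). Among cohesin and condensin genes 12 of 20 were called lower and 0 higher (median -0.34). Stag1, Stag2 and Smc1a, subunits of the cohesin ring, fell by 1.33 ± 0.091, 1.01 ± 0.11 and 0.85 ± 0.090, and the cohesin regulator Pds5a by 0.80 ± 0.082.

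In the mixed list of cyclins, their kinases and the inhibitors of these kinases, more genes rose than fell. Of 21 tested, 12 were called higher and 5 lower (median 0.33). Cdkn1a, which encodes p21, read 11.16, 9.54 and 10.91 in DMSO and 12.46, 11.76 and 12.50 in LBH589. The rise was 1.70 ± 0.16 (3.25-fold, adjusted p = 3.61e-06), largest in MP567, whose solvent level was the lowest (differences 1.30, 2.22 and 1.59). Gadd45b, a stress sensor that binds p21 and MAP kinase kinases, rose by 1.80 ± 0.17, and the inhibitors Cdkn1c (p57) and Cdkn2d (p19) by 1.05 ± 0.12 and 0.80 ± 0.12. Cdkn1b (p27) fell by 0.40 ± 0.10. Ccnd1, cyclin D1, had values of 11.05, 10.33 and 11.23 in DMSO and 9.41, 10.06 and 9.94 in LBH589. It fell by 1.06 ± 0.21 (adjusted p = 0.000977), least in MP567 (differences -1.64, -0.26 and -1.29). The partners of cyclin D1, Cdk6 and Cdk4, fell by 1.26 ± 0.12 and 0.66 ± 0.062, while Ccnd3 rose by 0.61 ± 0.085.

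Short motifs of cell cycle promoters were counted in the same windows. TTTGAA, the core of the element bound by the DREAM complex, stood in 71.4% of 28 mitosis promoters and in 15.6% of all. Of the 20 genes with it 19 were called lower, when 29 of all 35 mitosis genes were. In the 250 bases before the start alone the shares were 39.3% and 14.1%. TTTNNCGC, an E2F site, stood in 16 of 32 replication promoters and in 28.6% of 28 repair promoters, against 8.08% of all. Of the 4 replication genes with the largest changes, E2f7 held it before its start, as the reverse complement, and its 250 bases are shown with the match in capitals.
E2f7, plus strand, chr10:110745189-110745438: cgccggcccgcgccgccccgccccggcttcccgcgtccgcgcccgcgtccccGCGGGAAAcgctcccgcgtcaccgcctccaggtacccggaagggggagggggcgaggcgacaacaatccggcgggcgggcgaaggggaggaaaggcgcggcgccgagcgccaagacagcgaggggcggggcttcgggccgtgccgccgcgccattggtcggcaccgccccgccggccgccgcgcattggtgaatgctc

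**Figure D3:**
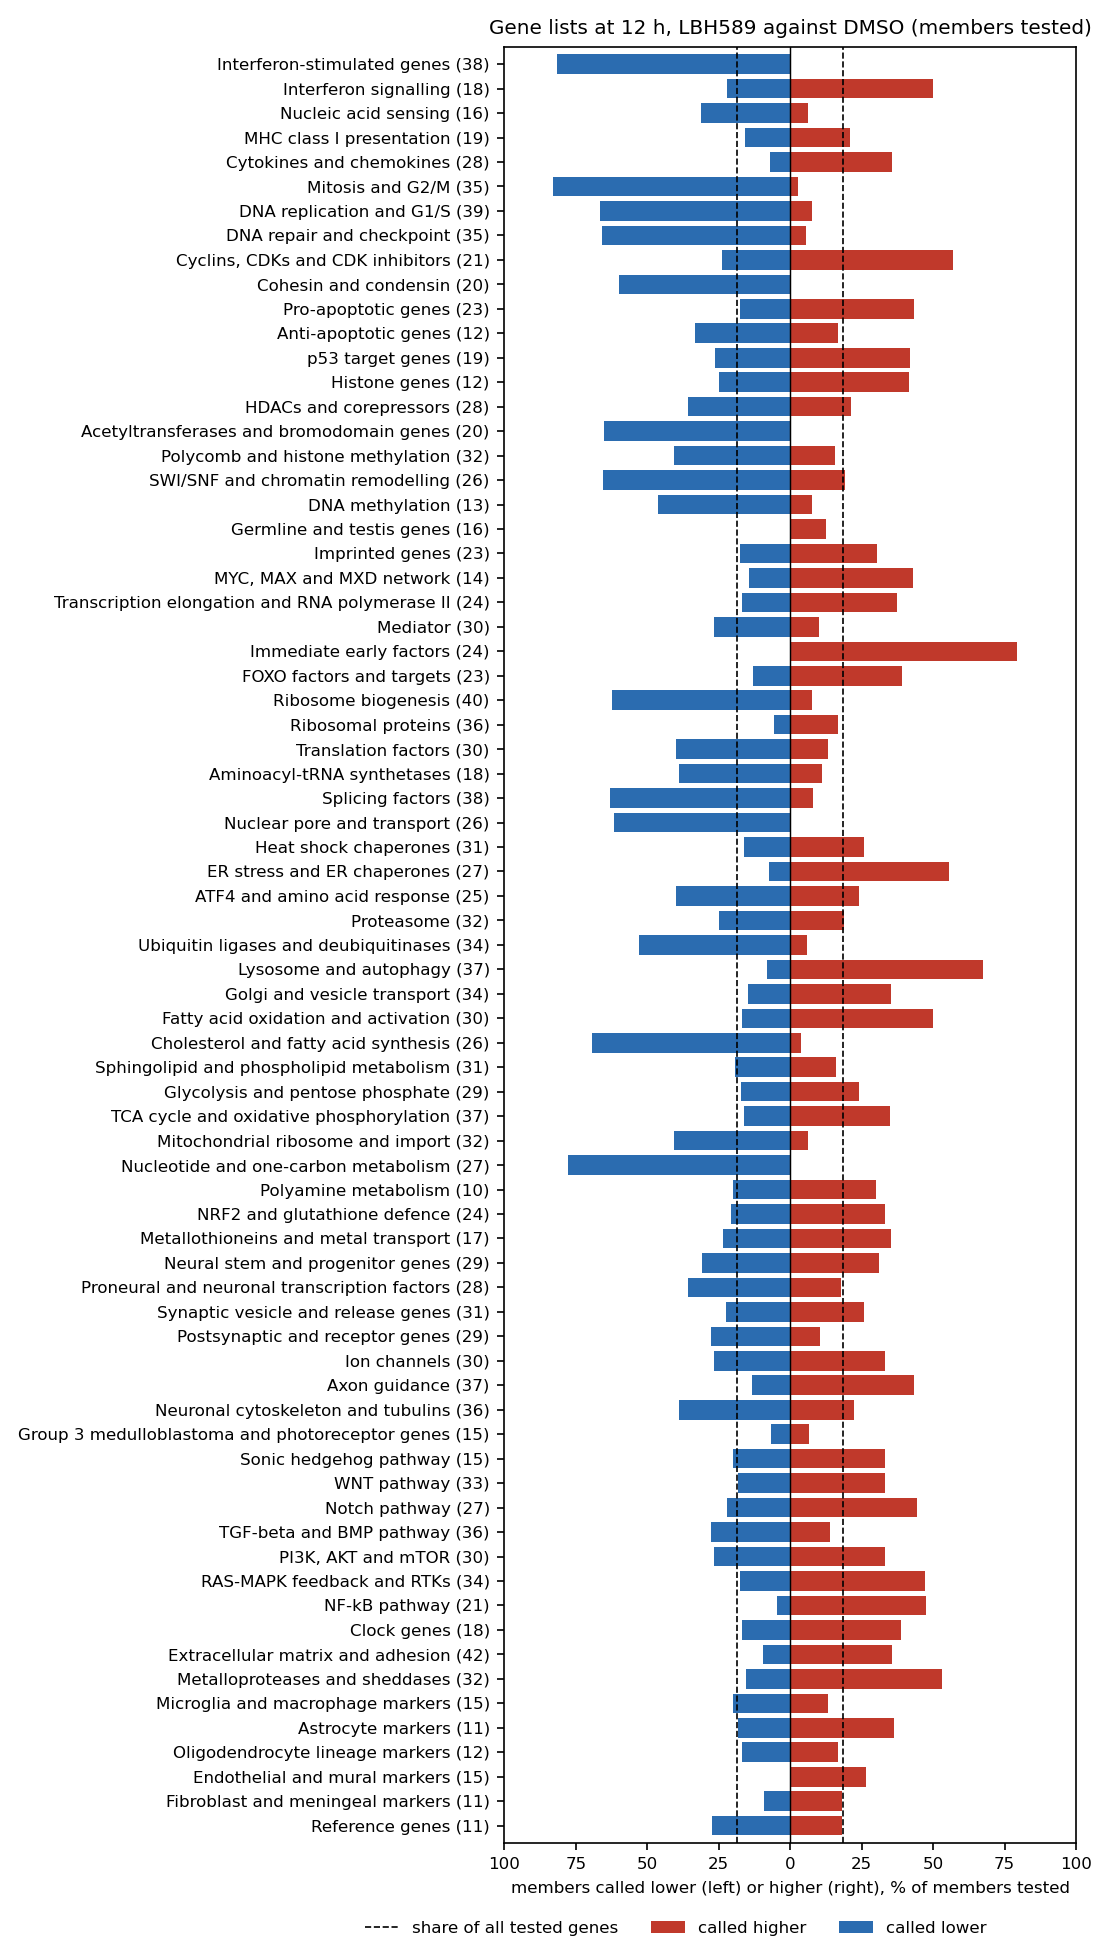
Share of tested members called higher (right, red) and lower (left, blue) at 12 h in each list with at least 10 tested members, the number tested in brackets, with dashed lines at the shares of all tested genes, 18.6% higher and 18.5% lower. Interferon-stimulated genes, mitosis, and nucleotide and one-carbon metabolism reach farthest to the left, and immediate early factors, lysosome and autophagy reach farthest to the right.

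Genes of cell death shifted in a mixed way. Pro-apoptotic genes were called higher in 10 and lower in 4 of 23 (median 0.20). Bcl2l11, which encodes the BH3-only protein BIM, had values of 8.83, 8.93 and 9.10 in DMSO and 9.91, 9.71 and 9.64 in LBH589. All LBH589 arrays lay above all DMSO arrays, with a rise of 0.80 ± 0.098 (1.74-fold, adjusted p = 2.46e-05). The BH3-only genes Bmf, Pmaip1 and Bbc3 rose by 0.68 ± 0.095, 0.63 ± 0.090 and 0.43 ± 0.12, and the death receptors Tnfrsf10b and Fas by 0.77 ± 0.15 and 0.48 ± 0.11, Fas from under the 25th percentile on all 3 DMSO arrays. Bok and Bak1, which encode pore-forming effectors, did not join them and fell by 1.15 ± 0.084 and 1.12 ± 0.12 (adjusted p = 4.26e-07 and 7.02e-06). Of 12 anti-apoptotic genes 4 were called lower and 2 higher (median -0.074), with falls of 0.64 ± 0.11 for the caspase inhibitor Xiap, 0.48 ± 0.11 for Birc2, 0.43 ± 0.097 for Bcl2l1 and 0.33 ± 0.11 for Bcl2, whereas Mcl1 had -0.045 and was not called. p53 targets were split, 8 higher and 5 lower of 19 (median 0.095). The stress protein Sesn2 and the kinases Plk2 and Plk3 rose by 0.71 ± 0.14, 0.66 ± 0.10 and 0.66 ± 0.17, and Sesn1 fell by 0.62 ± 0.12.

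FOXO factors, which switch on genes of arrest, stress defence and catabolism when insulin signals are low, include Foxo1, which the naming rule always lists. Its values were 8.17, 7.88 and 7.62 in DMSO and 9.66, 9.31 and 9.23 in LBH589. The rise of 1.51 ± 0.091 (2.85-fold, adjusted p = 1.09e-07) was alike in the 3 tumours (1.5, 1.43 and 1.61), whereas another probe set of Foxo1 gave 0.26. Foxo6 and Foxo4 rose by 0.70 ± 0.11 and 0.29 ± 0.090, and Foxo3 had -0.048, which did not pass. Of 23 FOXO factors and targets 9 were called higher and 3 lower (median 0.13). Txnip, an inhibitor of thioredoxin and of glucose uptake, Sesn3, a brake on mTORC1, and Irs2, an adaptor of the insulin receptor, rose by 1.54 ± 0.10, 0.84 ± 0.13 and 0.76 ± 0.10, and Trib1 fell by 0.66 ± 0.098.

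**Figure D4:**
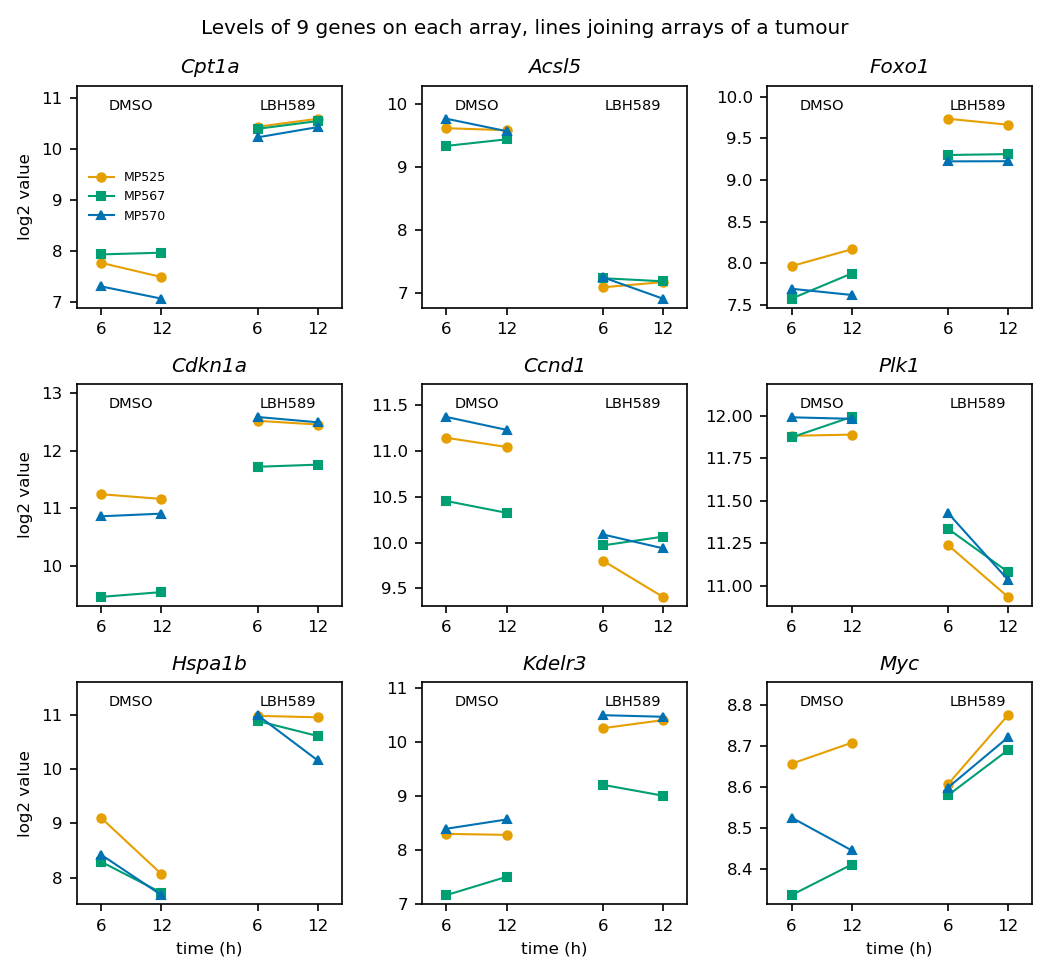
Log2 values of 9 genes on all 12 arrays, with DMSO on the left and LBH589 on the right of each panel, time in h on the x axis and a line joining the 6 h and 12 h arrays of a tumour. Cpt1a, Foxo1, Cdkn1a, Hspa1b and Kdelr3 lie higher and Acsl5, Ccnd1 and Plk1 lower in LBH589 at 12 h in all tumours; the Myc panel spans less than 0.5 in all.

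Genes for the machinery of histone acetylation leaned downward. No member of 20 acetyltransferase and bromodomain genes was called higher and 13 were called lower (median -0.40). Ep300, the p300 acetyltransferase, fell by 0.87 ± 0.11, Kat6b by 0.79 ± 0.097, and the bromodomain scaffolds Brpf3 and Brd1 by 0.93 ± 0.11 and 0.80 ± 0.099. Deacetylases and corepressors were 6 higher and 10 lower of 28 (median -0.025). The CoREST subunit Rcor2 and the NuRD subunits Mta3 and Mbd3 fell by 1.29 ± 0.15, 1.25 ± 0.081 and 0.87 ± 0.11. Hdac11, Hdac5 and Hdac1 rose by 0.93 ± 0.11, 0.68 ± 0.089 and 0.66 ± 0.10, while Hdac9 and Hdac2 fell by 0.80 ± 0.15 and 0.29 ± 0.070.

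Polycomb and histone methylation genes were called lower in 13 and higher in 5 of 32 (median -0.18), led by falls of the H3K36 methyltransferases Nsd1 (-1.03 ± 0.10) and Nsd2 (-0.93 ± 0.081) and of the polycomb protein Bmi1 (-0.82 ± 0.13), while the polycomb reader Cbx7 rose by 0.90 ± 0.088. SWI/SNF and other remodellers were lower in 17 and higher in 5 of 26 (median -0.41). Smarce1 and Arid2 fell by 0.93 ± 0.098 and 0.83 ± 0.095. Dpf3 and Actl6b, subunits that join the complex in differentiated muscle and neurons, rose by 1.18 ± 0.14 and 0.85 ± 0.11. In DNA methylation 6 of 13 fell and 1 rose (median -0.12), with -0.69 ± 0.11 for Tet2, which oxidises methylcytosine, -0.65 ± 0.096 for Zfp57, which protects imprints, and -0.37 ± 0.11 for the methyltransferase Dnmt3a. Among 12 histone genes 5 rose and 3 fell (median 0.32), including linker histones H1f1 (1.12 ± 0.21), H1f3 (0.90 ± 0.13) and H1f10 (0.78 ± 0.077), and the repressive variant Macroh2a2 (-0.78 ± 0.14).

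Germline genes, many silenced by DNA methylation in body cells, were hard to measure: 16 of 26 on the array were bright enough to test, 2 rose and 0 fell (median -0.0089). Those were Tex15, which works in male meiosis, and Ddx4, the VASA helicase. Tex15 read 7.43, 7.03 and 7.12 in DMSO and 8.88, 8.63 and 8.86 in LBH589 and rose by 1.60 ± 0.11; Ddx4 rose by 1.09 ± 0.14, from under the 25th percentile on 2 of 3 DMSO arrays (adjusted p = 2.74e-07 and 3.41e-05). Of 23 imprinted genes 7 rose and 4 fell (median 0.15). Besides Rian, the growth restrainers Plagl1 (1.28 ± 0.13) and Cdkn1c rose, and Grb10, an adaptor that restrains the insulin receptor, fell by 1.11 ± 0.11.

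The driver of the model, Myc, was not called. Its values were 8.71, 8.41 and 8.45 in DMSO and 8.78, 8.69 and 8.72 in LBH589, and the difference was 0.21 ± 0.091 (adjusted p = 0.0932). The labels do not say which MYC sequence drives the tumours, so whether this mouse probe set reports the driver was not tested. Of 14 genes of the MYC and MAX network 6 were called higher and 2 lower (median 0.22). Mxd1, which competes with MYC for MAX, and Mlxipl, the glucose-responsive factor ChREBP, rose by 0.93 ± 0.088 and 1.20 ± 0.13, Mycn by 0.33 ± 0.10, and Mycl fell by 0.33 ± 0.12. Regulators of elongation by RNA polymerase II were higher in 9 and lower in 4 of 24 (median 0.16). Hexim1, which holds the elongation kinase P-TEFb inactive, read 9.21, 9.80 and 9.32 in DMSO and 10.09, 10.75 and 10.29 in LBH589 and rose by 0.94 ± 0.089 (adjusted p = 3.30e-06). Larp7, which stabilises the 7SK RNA of the same complex, fell by 0.86 ± 0.070, and Paf1 rose by 0.92 ± 0.075. Mediator subunits were lower in 8 and higher in 3 of 30 (median -0.065), led by Med12 (-0.69 ± 0.098) and Ccnc (-0.65 ± 0.15).

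Immediate early factors, which respond within minutes to growth signals or stress, were the list with the most one-sided rise. Of 24 tested, 19 were called higher and 0 lower (median 0.59). Egr1 had values of 7.45, 7.94 and 7.88 in DMSO and 8.82, 9.84 and 9.13 in LBH589, and Ier3, a survival factor, had 8.95, 10.07 and 9.53 in DMSO and 10.53, 11.95 and 10.86 in LBH589. Both rose in each tumour, by 1.51 ± 0.17 and 1.60 ± 0.13 (adjusted p = 1.45e-05 and 1.19e-06). Nr4a3, Junb, Fos and Atf3 rose by 1.27 ± 0.15, 1.26 ± 0.18, 1.25 ± 0.11 and 1.15 ± 0.13.

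Genes that make ribosomes fell, whereas genes of the ribosome itself hardly moved. In ribosome biogenesis 25 of 40 were called lower and 3 higher (median -0.38). Utp20, of the complex that processes small-subunit RNA, Gnl3, the nucleolar GTPase nucleostemin, Dkc1, which guides pseudouridine formation, and Ubtf, which loads RNA polymerase I, fell by 1.13 ± 0.096, 1.03 ± 0.10, 1.01 ± 0.079 and 0.81 ± 0.12. CACGTG, the E-box that MYC and other factors bind, stood in 20.6% of 34 promoters of this list and 10.3% of all; in the 250 bases before the start alone it was 5.88% against 8.75%. Ribosomal protein genes were called in 6 cases higher and 2 lower of 36 (median -0.021), between -0.48 ± 0.16 for Rpl17 and 0.42 ± 0.11 for Rpl13. Translation factors were lower in 12 and higher in 4 of 30 (median -0.21), among them Eef1a2 (-0.70 ± 0.17), a neuronal elongation factor, and Eif4a1 (0.61 ± 0.13), the initiation helicase. Aminoacyl-tRNA synthetases were lower in 7 and higher in 2 of 18 (median -0.10), with -0.64 ± 0.10 for Vars and 0.50 ± 0.10 for Qars. In DMSO itself 4 of these 18 were called lower at 12 h than at 6 h (median change -0.15).

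Splicing factors were called lower in 24 and higher in 3 of 38 (median -0.23). Ptbp2, the neural polypyrimidine tract-binding protein that holds back adult exons, had values of 12.05, 11.22 and 11.93 in DMSO and 10.55, 9.86 and 10.77 in LBH589 and fell by 1.34 ± 0.087 (2.54-fold, adjusted p = 1.70e-07). Mbnl2, which promotes adult exons, rose by 0.71 ± 0.087, and U2af2 and Srsf4 fell by 0.59 ± 0.12 and 0.58 ± 0.084. In nuclear pore and transport 16 of 26 were called lower and 0 higher (median -0.27), including the import receptors Kpnb1 (-0.86 ± 0.063) and Tnpo1 (-0.69 ± 0.075) and the pore subunits Nup37 (-0.92 ± 0.10) and Nup205 (-0.68 ± 0.083).

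Heat shock chaperones changed in single members more than as a group. Of 31 chaperones 8 rose (25.8%) and 5 fell (16.1%), against 18.6% and 18.5% of all genes (median -0.0073). Hspa1b had values of 8.07, 7.72 and 7.68 in DMSO and 10.96, 10.61 and 10.16 in LBH589 and Hspa1a had 8.37, 7.68 and 7.45 in DMSO and 10.64, 10.41 and 10.11 in LBH589. Both HSP70 genes rose in every tumour, Hspa1b 6.76-fold and Hspa1a 5.86-fold (adjusted p = 5.70e-08 and 7.73e-07). Their coding sequences are nearly the same, so the probe sets cannot be taken as separate measurements. Hspa2, a relative known from testis and brain, rose by 1.80 ± 0.16, and the small chaperone Hspb1 (HSP27) by 1.36 ± 0.11, although another probe set of Hspb1 gave 0.25. The constitutive Hspa8 (-0.0073), the stress HSP90 gene Hsp90aa1 (0.051), Dnajb1 (-0.056) and Hsph1 (-0.11) did not pass the test, and the mitochondrial chaperones Hspd1 and Hspa9 fell by 0.59 ± 0.061 and 0.36 ± 0.046.

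The heat shock element core GAANNTTC stood in 42.3% of 26 chaperone promoters and 7.47% of all. The 11 genes with it included 4 called higher and 3 called lower. The runs before Hspa1b and Hspa1a, both on the minus strand, hold 1 match each, at the same distance from the start, and carry the same base at 247 of 250 positions (98.8%). They are shown because these genes rose most among the chaperones, with the match in capitals.
Hspa1b, chr17:34959239-34959488: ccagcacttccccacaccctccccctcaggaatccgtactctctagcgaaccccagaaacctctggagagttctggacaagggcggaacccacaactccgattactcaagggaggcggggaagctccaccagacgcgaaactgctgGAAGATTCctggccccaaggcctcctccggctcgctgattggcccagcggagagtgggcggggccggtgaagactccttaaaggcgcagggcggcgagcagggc
Hspa1a, chr17:34972157-34972406: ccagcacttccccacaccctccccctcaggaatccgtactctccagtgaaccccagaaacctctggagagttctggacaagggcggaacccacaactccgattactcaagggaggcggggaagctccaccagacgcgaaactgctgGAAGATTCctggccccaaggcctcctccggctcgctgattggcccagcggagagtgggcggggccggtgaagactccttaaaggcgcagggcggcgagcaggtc

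Endoplasmic reticulum stress genes were higher in 15 and lower in 2 of 27 (median 0.21). Kdelr3, a receptor that returns chaperones to the reticulum, read 8.27, 7.50 and 8.56 in DMSO and 10.40, 9.0 and 10.46 in LBH589. It rose by 1.84 ± 0.11 (3.59-fold, adjusted p = 8.34e-08), and MP567 was lowest in both groups. The membrane-bound factors Creb3l2 and Creb3l1 and the death-linked factor Ddit3 (CHOP) rose by 1.21 ± 0.094, 1.0 ± 0.12 and 1.21 ± 0.13. The chaperone BiP, gene Hspa5, rose by no more than 0.21 ± 0.071, and Xbp1, the factor activated by unconventional splicing, fell by 0.35 ± 0.070. The letters CCACG, the conserved end of the ER stress element, stood in 76.2% of 21 promoters of this list and 45.9% of all, 2 times before the start of Kdelr3.
Kdelr3, plus strand, chr15:79516158-79516407: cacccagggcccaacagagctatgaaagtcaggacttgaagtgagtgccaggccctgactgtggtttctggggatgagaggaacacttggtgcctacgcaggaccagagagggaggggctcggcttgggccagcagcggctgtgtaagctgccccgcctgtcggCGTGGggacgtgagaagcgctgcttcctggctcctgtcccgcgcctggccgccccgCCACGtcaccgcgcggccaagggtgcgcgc

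Targets of ATF4, the factor of amino acid shortage, were lower in 10 and higher in 6 of 25 (median -0.16). In DMSO itself 6 of the 25 were called lower at 12 h than at 6 h (median change -0.29). In that comparison 0.311% of all genes were called. The 12 h difference is thus measured against a solvent level that had dropped for part of the list. With LBH589 at 6 h, 14 were called lower and 5 higher (median -0.34). TGATGNAA, the composite site of ATF4, stood in 31.8% of 22 promoters and 3.21% of all. Of the 7 genes with it 1 was called higher and 1 lower. Slc7a3, a carrier of cationic amino acids, fell by 1.06 ± 0.11, Stc2 fell by 0.63 ± 0.12 and Chac1, which degrades glutathione, rose by 0.73 ± 0.14. Proteasome subunits were called in 6 cases higher and 8 lower of 32 (median -0.097), none by more than the 0.51 ± 0.12 of Psma5. Ubiquitin ligases and deubiquitinases were lower in 18 and higher in 2 of 34 (median -0.24). Cul1, the scaffold of SCF ligases, read 10.76, 10.89 and 10.79 in DMSO and 9.21, 9.05 and 9.0 in LBH589. It fell by 1.72 ± 0.082 (3.3-fold, adjusted p = 3.63e-08), and the cullins Cul4b and Cul5 fell by 0.81 ± 0.12 and 0.68 ± 0.10 and the ligase Itch by 0.83 ± 0.12.

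Lysosome and autophagy genes rose broadly, 25 of 37 called higher and 3 lower (median 0.31). Wipi1, which marks forming autophagosomes, had values of 7.15, 7.64 and 7.22 in DMSO and 8.43, 9.08 and 8.55 in LBH589 and rose by 1.35 ± 0.091 (adjusted p = 2.31e-07). The cathepsins Ctsb and Ctsf, the sialidase Neu1, the cargo receptor Sqstm1 (p62) and Map1lc3b (LC3B) rose by 0.84 ± 0.097, 0.80 ± 0.095, 0.84 ± 0.083, 0.72 ± 0.067 and 0.70 ± 0.054. The master factor Tfeb had 0.14 and was not called. Golgi and vesicle transport genes were higher in 12 and lower in 5 of 34 (median 0.12). Besides Copz2 and Ap4s1, the exocytosis GTPase Rab3b rose by 1.19 ± 0.11 and Rab33a fell by 1.05 ± 0.19.

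By RNA level, genes for burning fatty acids leaned upward and genes for making fatty acids and cholesterol leaned downward. Of 30 genes of fatty acid oxidation and activation 15 were called higher and 5 lower (median 0.41). Beside Cpt1a, Ppargc1a, the coactivator that drives formation of mitochondria, read 6.78, 6.23 and 6.40 in DMSO and 8.89, 7.97 and 8.08 in LBH589 and rose by 1.84 ± 0.16 (adjusted p = 1.49e-06). Ppard, Acads, Etfa, Etfdh, Acadm and Cpt2, which span the nuclear receptor, the dehydrogenases and the electron carriers of the pathway, rose by 0.91 ± 0.12, 0.78 ± 0.092, 0.75 ± 0.11, 0.73 ± 0.11, 0.68 ± 0.098 and 0.67 ± 0.091. Acsl5 and the isomerase Eci1 (-0.93 ± 0.092) fell. In cholesterol and fatty acid synthesis 18 of 26 were called lower and 1 higher (median -0.42). Elovl6, which lengthens fatty acids, had values of 13.21, 12.85 and 13.24 in DMSO and 12.14, 11.47 and 12.14 in LBH589, and Fads2, which desaturates them, 13.38, 13.17 and 13.18 in DMSO and 12.19, 12.07 and 12.06 in LBH589. Both fell with separate groups, by 1.18 ± 0.066 and 1.14 ± 0.053 (adjusted p = 7.23e-08 and 3.28e-08). Scd1, Fasn, Acaca and the cholesterol enzymes Cyp51 and Hmgcs1 fell by 1.15 ± 0.14, 0.74 ± 0.063, 0.66 ± 0.087, 0.83 ± 0.13 and 0.76 ± 0.11. The one rise was Acacb (0.91 ± 0.094), the carboxylase at the mitochondrial surface, while the regulators Srebf1 (0.11) and Srebf2 (-0.056) were not called. The sterol element TCACNCCAC stood in 5.0% of 20 promoters and 1.49% of all.

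Nucleotide and one-carbon metabolism fell nearly as one-sidedly as the interferon genes, with 21 of 27 called lower and 0 higher (median -0.49). The mitochondrial folate enzymes Mthfd2l and Mthfd1l fell by 1.12 ± 0.074 and 1.05 ± 0.15, the ectonucleotidase Nt5e by 0.84 ± 0.099, the kinase Nme1 by 0.84 ± 0.081, and Cad and Ctps, which begin pyrimidine synthesis and make CTP, by 0.79 ± 0.075 and 0.81 ± 0.078. Central carbon genes moved both ways, and the glycolysis shares, 24.1% higher and 17.2% lower, lay near those of all genes. In glycolysis and the pentose phosphate pathway 7 rose and 5 fell of 29 (median -0.0028), with brain forms of 2 enzymes higher, Aldoc by 1.40 ± 0.13 and Eno2 by 0.98 ± 0.14, while the regulator Pfkfb3 and the isomerase Rpia fell by 0.96 ± 0.23 and 0.92 ± 0.12. In the TCA cycle and oxidative phosphorylation 13 of 37 rose and 6 fell (median 0.11), from Cox7a1 (0.88 ± 0.12) to Idh1 (-0.66 ± 0.12). The mitochondrial ribosome and import list was lower in 13 and higher in 2 of 32 (median -0.15), led by Mrps30 (-0.79 ± 0.091).

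Sphingolipid and phospholipid genes were near the background, 5 higher and 6 lower of 31 (median 0.097), although Cers2, which makes very long-chain ceramides, fell by 1.48 ± 0.080 (adjusted p = 6.38e-08). Polyamine genes were 3 higher and 2 lower of 10 (median 0.045), with Sat1, which starts polyamine breakdown, at 0.71 ± 0.11, Azin2 at 1.26 ± 0.11 and spermidine synthase Srm at -0.64 ± 0.053. NRF2 and glutathione genes were 8 higher and 5 lower of 24 (median -0.0083). The glutathione transferase Gsta4, the reductase Srxn1 and the haem oxygenase Hmox1 rose by 1.78 ± 0.10, 1.28 ± 0.14 and 1.03 ± 0.12. The antioxidant response core TGACNNNGC stood in 31.6% of 19 of these promoters and 15.8% of all. Of the 6 genes with it 1 was called higher and 2 lower. Metallothioneins and metal carriers were 6 higher and 4 lower of 17 (median 0.11), from Slc30a3 (0.92 ± 0.16) to Slc39a10 (-0.96 ± 0.11), and TGCNCNC, the metal response core, stood in 91.7% of 12 promoters and 61.9% of all. Among the 11 genes with that core 3 were called higher and 3 lower.

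Neural identity genes changed in single members more than as groups. Neural stem and progenitor genes were 9 higher and 9 lower of 29 (median 0.065). Nes, the intermediate filament nestin, rose by 1.19 ± 0.26 with differences of 0.51, 1.31 and 1.75, and Sox9 rose by 0.90 ± 0.13, while the RNA-binding protein Msi1 and the surface marker Prom1 fell by 1.04 ± 0.10 and 0.98 ± 0.16. Proneural and neuronal factors were lower in 10 and higher in 5 of 28 (median -0.053). Dcx, the microtubule protein of migrating neurons, read 10.80, 10.20 and 11.13 in DMSO and 9.35, 8.81 and 9.93 in LBH589 and fell by 1.35 ± 0.090 (adjusted p = 2.16e-07), and Neurod1, a factor of granule neurons, fell by 0.72 ± 0.099. Group 3 medulloblastoma and photoreceptor genes were nearly all uncalled, 1 higher and 1 lower of 15 (median -0.031). The exceptions were Npr3, a natriuretic peptide receptor that marks Group 3 tumours, and Mafa. Npr3 had values of 11.39, 10.69 and 11.53 in DMSO and 9.69, 9.22 and 9.87 in LBH589 and fell by 1.61 ± 0.11 (3.05-fold, adjusted p = 2.12e-07), and Mafa rose by 0.57 ± 0.091.

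Checked against the label, markers of the cerebellar neural lineage were read on the 12 h arrays. Zic1 lay between 11.29 and 11.93 and Neurod1 between 8.21 and 9.37. Nes lay between 7.39 and 9.73, Sox2 between 6.73 and 9.59 and Barhl1 between 6.89 and 8.765. Atoh1, the factor of granule neuron precursors, ranged from 7.71 to 11.78 in DMSO and was high in MP525 only. Of 4 Group 3 markers, Npr3 lay between 9.22 and 11.53, Gabra5 between 7.18 and 8.80, Otx2 between 6.81 and 7.82 and Impg2 between 6.04 and 6.37. None was under its array's 25th percentile, and these levels of different probe sets are not set against each other. Impg2 lay close to those percentiles, which ran from 5.94 to 6.04. Most markers read for other cell types, such as Csf1r, Mbp and Cd3e, were not under it either, Ptprc and Lum excepted. These readings therefore do not test the label.

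Synaptic vesicle genes were 8 higher and 7 lower of 31 (median 0.11), where the vesicle SNARE Vamp1 and the vesicle protein Sv2a rose by 1.30 ± 0.11 and 1.08 ± 0.16, and the active zone scaffolds Rims1 and Rims2 fell by 1.01 ± 0.12 and 1.06 ± 0.12. Postsynaptic genes were 3 higher and 8 lower of 29 (median 0.051); the list also holds Nrxn2, a presynaptic adhesion molecule, which fell by 1.60 ± 0.22, and the AMPA receptor subunit Gria4 fell by 1.13 ± 0.13. Ion channels were 10 higher and 8 lower of 30 (median 0.030), from the potassium channel Kcnn1 (1.05 ± 0.099) to Kcnk1 (-0.88 ± 0.10). Axon guidance genes leaned upward, 16 higher and 5 lower of 37 (median 0.25), with the netrin receptor Unc5a at 1.25 ± 0.15, the ephrin receptor Epha4 at 1.24 ± 0.11 and the repellent Slit2 at 1.07 ± 0.16. Neuronal cytoskeleton genes were 8 higher and 14 lower of 36 (median -0.058), with Tubb2a at 1.14 ± 0.15, the neurofilament Nefh at -1.08 ± 0.18 and the axon initial segment anchor Ank3 at -1.0 ± 0.11.

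Signalling pathways showed the following. RAS-MAPK feedback genes and receptor kinases were higher in 16 and lower in 6 of 34 (median 0.24); beside Gas6, the nuclear ERK phosphatase Dusp5 and the receptor Fgfr1 rose by 1.01 ± 0.11 and 0.81 ± 0.089. NF-kB genes were higher in 10 and lower in 1 of 21 (median 0.24), with the p100 subunit Nfkb2 at 1.16 ± 0.13 and the inhibitor Nfkbie at 1.08 ± 0.15. Notch genes were higher in 12 and lower in 6 of 27 (median 0.26), with the receptor Notch1 at 0.94 ± 0.11 and its target Hey2 at 0.85 ± 0.13. WNT genes were 11 higher and 6 lower of 33 (median 0.039), with the antagonist Sfrp2 at -0.96 ± 0.14 and the feedback inhibitor Nkd1 at 0.86 ± 0.12.

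In the sonic hedgehog pathway 5 rose and 3 fell of 15 (median -0.028): the transducer Smo and the factor Gli2 fell by 1.04 ± 0.10 and 0.77 ± 0.085, and Gli1, a target of the pathway, rose by 0.71 ± 0.13. TGF-beta and BMP genes were 5 higher and 10 lower of 36 (median -0.060), led by the ligand Tgfb2 (-1.14 ± 0.13) and the receptor Bmpr1b (-0.92 ± 0.12). PI3K, AKT and mTOR genes were 10 higher and 8 lower of 30 (median -0.024); the mTOR subunit Mlst8 fell by 0.84 ± 0.11, and the brakes Tsc2, Castor1 and Deptor rose by 0.78 ± 0.081, 0.75 ± 0.12 and 0.69 ± 0.13. Clock genes were 7 higher and 3 lower of 18 (median 0.062), with Arntl (BMAL1) at 1.15 ± 0.094 and Cry2 at 0.77 ± 0.14.

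Genes of the cell's surroundings leaned upward. Of 42 matrix and adhesion genes 15 rose and 4 fell (median 0.18), among them the laminin chain Lama5 (1.47 ± 0.11) and the laminin-binding integrins Itga6 (1.08 ± 0.11) and Itga7 (1.12 ± 0.13). Of 32 metalloproteases and sheddases 17 rose and 5 fell (median 0.34). Rhbdf2, the partner that carries the sheddase ADAM17 to the surface, had values of 7.75, 7.69 and 7.60 in DMSO and 9.32, 9.72 and 9.78 in LBH589. It rose by 1.93 ± 0.13 (adjusted p = 1.81e-07), the plasminogen activator Plat and the inhibitor Timp1 rose by 1.54 ± 0.13 and 1.33 ± 0.17, and Mmp24 fell by 1.32 ± 0.085. Of 28 cytokines and chemokines 10 rose and 2 fell (median 0.17). The inflammatory cytokines Il1b, Il6 and Il1a and the neutrophil chemokine Cxcl1 rose by 1.37 ± 0.16, 0.93 ± 0.15, 0.79 ± 0.22 and 0.84 ± 0.19, and Tnf fell by 0.64 ± 0.17. Il1b read 8.44, 8.77 and 8.03 in DMSO and 9.46, 10.40 and 9.50 in LBH589, highest in MP567 in both groups.

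Cultures of a tumour can hold other cells, and in bulk RNA fewer cells of a type and less RNA per cell cannot be told apart. Sums of the linear values of marker lists overlapped between DMSO and LBH589 at 12 h for microglia (3084 to 5036 and 3304 to 4717), oligodendrocytes (2401 to 3094 and 2559 to 3355), fibroblasts (1793 to 3175 and 1968 to 3298) and blood cells (790 to 860 and 686 to 867), and for endothelium (2971 to 4147 and 3846 to 4709). The astrocyte sum was higher in LBH589 (3700 to 4589) than in DMSO (2413 to 3400). These ranges do not pair the arrays by tumour, so a rise within each tumour can be missed. Called members were 2 higher and 3 lower of 15 for microglia, 4 and 2 of 11 for astrocytes, 2 and 2 of 12 for oligodendrocytes, 4 and 0 of 15 for endothelium, 2 and 1 of 11 for fibroblasts, and 0 and 0 of 7 for blood cells. The macrophage gene Cd68 rose by 0.71 ± 0.11, Ptprc (CD45) fell by 0.71 ± 0.20 with its LBH589 arrays at 5.84 to 5.99, and Csf1r (-0.079), Aif1 (-0.16) and Cx3cr1 (-0.062) did not pass. Among astrocyte markers Aldoc, Sox9 and Gfap (0.42 ± 0.12) rose, Gja1 fell by 0.65 ± 0.14 and Aqp4 (-0.046) did not pass. Of the endothelial markers Kdr, Cldn5 and Pecam1 rose by 0.71, 0.55 and 0.28, and Cdh5 (0.14) did not pass. Il1b, Il6 and Tnf are genes that microglia can express, and the part of other cells in these results was not tested. Ptprc lay under the array's 25th percentile on 4 of the 6 arrays.

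Reference genes often used for scaling gave 2 higher and 3 lower of 11 (median 0.029). Centring the arrays on them moved the median of all genes from 0.0057 to 0.0665 and the calls to 4366 higher and 2937 lower.

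The change from 6 h to 12 h was tested directly. At 6 h, 3349 genes were called higher and 2984 lower, 34.0% of those tested. Of the 12 h calls, 72.6% were also called at 6 h in the same direction, and of the 6 h calls 79.5% at 12 h. No gene was called at both times in opposite directions. The effect itself differed between the times for 2 genes by the limma test, 0.0107% of all, both more negative at 12 h, while 1728 had an unadjusted p under 0.05. Rnf213, an interferon-induced giant ubiquitin ligase, read 8.17, 7.87 and 8.08 in DMSO and 8.12, 8.01 and 8.32 in LBH589 at 6 h and 10.28, 9.92 and 10.84 in DMSO and 8.38, 8.32 and 8.47 in LBH589 at 12 h. Its effect went from 0.11 to -1.96, a change of -2.07 ± 0.19 (adjusted p = 0.000689). Ddx58 went from -0.63 to -2.32, a change of -1.68 ± 0.20 (adjusted p = 0.00774). In both, the solvent level rose between 6 h and 12 h, by 2.31 ± 0.13 and 2.0 ± 0.14 (adjusted p = 2.12e-06 and 1.35e-05), in the DMSO 12 h arrays that the 12 h effect also uses. Without MP525 no gene was called for this change, without MP570 1 was, and without MP567 5 were. After quantile normalization 8 were called, 5 with a more positive and 3 with a more negative effect at 12 h.

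Among genes that came close without passing, Hspb1 went from 0.26 at 6 h to 1.36 at 12 h (adjusted p of the change = 0.0571), Dcx from -0.52 to -1.35 (0.0746), Usp18 from -1.29 to -3.43 (0.0925) and Irf7 from -0.11 to -1.89 (0.0934). Lists can be set side by side for the 2 times, without a test of the difference. Mitosis genes were called lower in 13 of 35 at 6 h and 29 at 12 h, replication genes in 13 and 26 of 39, interferon-stimulated genes in 15 and 31 of 38, and cytokines were called higher in 2 and 10 of 28. Lysosome genes were called higher in 22 and 25 of 37, fatty acid oxidation in 16 and 15 of 30, and ER stress genes in 20 and 15 of 27.

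**Figure D5:**
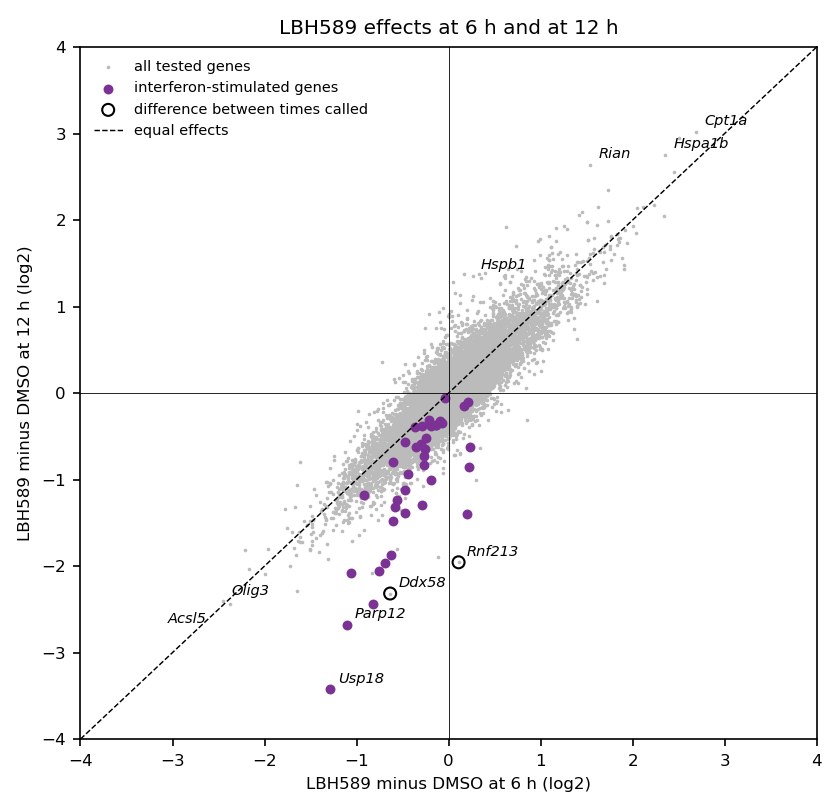
Difference between LBH589 and DMSO at 6 h (x axis) and at 12 h (y axis), log2, for all 18652 tested genes (grey), with the 38 interferon-stimulated genes in purple and circles on Rnf213 and Ddx58, the 2 genes whose effects differed between the times. Most genes lie along the dashed line of equal effects, and the interferon-stimulated genes lie mostly below it.

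The LBH589 effect differed between tumours for 812 genes (4.35%) when the 6 h and 12 h arrays of a tumour were tested jointly, since 12 h alone has 1 pair per tumour. Among the 8 with the smallest p, Efna3, an ephrin, was raised most in MP567: its 12 h values were 9.78, 7.67 and 9.39 in DMSO and 10.88, 10.40 and 10.45 in LBH589. Hsd11b2, the enzyme that inactivates glucocorticoids, was bright in MP525 only, with 11.24, 7.84 and 7.88 in DMSO and 8.41, 8.18 and 8.31 in LBH589, and only there dropped under LBH589. Atoh1 followed the same pattern, with differences of -1.25, 0.57 and 0.35, and Hoxa2, a hindbrain patterning gene, had differences of -0.91, -1.65 and 0.16. Cxcl10, an interferon-induced chemokine, had -0.29, 0.89 and -0.84, Cdk2ap1, a CDK2-binding protein, -1.24, 0.28 and -1.03, Rassf4, a RAS-association domain protein, -0.26, 1.14 and 0.66 and Id2, an inhibitor of bHLH factors, -0.089, 1.06 and 0.96. For Efna3 and Rassf4 the tumour with the lowest solvent level rose most, and for Hsd11b2, Atoh1 and Hoxa2 the one with the highest dropped most; the effect is computed from those same solvent arrays. Adjusted p-values of the tumour term ran from 8.19e-06 for Hsd11b2 to 0.000208 for Id2.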

How the data were processed

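Per the labels, total RNA of 12 cultures was hybridised to Affymetrix arrays of the type Mouse Gene 2.0 ST. The authors deposited log2 values of 41345 probe sets; their normalization is not given in the sources used, and the only program listed in the submitters' processing notes, Agilent Feature Extraction (version 10.7.3.1), reads arrays of a different maker. Values were used as deposited, with array medians of 7.10 to 7.21; with intensities already summarised, the number of arrays limits the precision. Probe sets were named through the platform annotation and RefSeq: 23521 name 1 gene, 1814 several and 16010 none listed. Each gene with several kept 1 probe set, chosen by mean level, and genes above the array's 25th percentile on at least 3 arrays were tested (18652; 3528 were dim).

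One limma 3.58.1 model in R 4.3.3 (lmFit, eBayes with a mean-variance trend) over all 12 arrays had 4 group means and the tumour as a block, leaving 6 residual degrees of freedom. The labels give the same 3 tumours in each group; deviations from group means correlated at 0.450 to 0.805 in all 18 pairs of arrays of 1 tumour. The tumour term was an F test over both times with 4 residual degrees of freedom. The code was tested on simulated data.

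Members and the 74 gene lists were chosen with earlier results of these data known. Named genes are the 12 largest called rises and falls with 1 direction in all tumours (no clone names, microRNAs or small nucleolar RNAs), up to 4 largest called members per list, Foxo1, Cdkn1a, Bcl2l11, Myc, Ccnd1 and Hexim1, the called changes between times, and the 8 smallest p of the tumour term. Further list members were named for their known roles, with their values seen. Alternatives were other blocks, scalings, filters, probe set rules and variance models, and leaving out arrays or tumours. Motifs were searched on both strands of RefSeq promoter windows (GRCm38.p6), where a match is a description only.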

Additional observations from a re-analysis of the deposited data

Results flagged for a closer look

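The difference of effects between 6 h and 12 h was tested in the limma model, and Ddx58 (-1.68) and Rnf213 (-2.07) passed, both with a more negative effect at 12 h; the adjusted p-values were 0.00774 and 0.000689. The solvent level of both rose over the same interval.

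The LBH589 effect differed between the 3 tumours, by an F test of the tumour term over both times in limma with Benjamini-Hochberg adjustment over 18652 genes, for 58 of the genes named in the text, 8 of which were named for their small p in this test, so the number is no measure of how common such differences are. For Efna3 the 12 h differences were 1.10, 2.74 and 1.05 in MP525, MP567 and MP570 (adjusted p = 8.19e-06). For Hsd11b2 the 12 h differences were -2.83, 0.35 and 0.43 in MP525, MP567 and MP570 (adjusted p = 8.19e-06). For Atoh1 the 12 h differences were -1.25, 0.57 and 0.35 in MP525, MP567 and MP570 (adjusted p = 3.55e-05). For Cxcl10 the 12 h differences were -0.29, 0.89 and -0.84 in MP525, MP567 and MP570 (adjusted p = 3.55e-05). For Hoxa2 the 12 h differences were -0.91, -1.65 and 0.16 in MP525, MP567 and MP570 (adjusted p = 7.82e-05). For Cdk2ap1 the 12 h differences were -1.24, 0.28 and -1.03 in MP525, MP567 and MP570 (adjusted p = 9.04e-05). Genes higher in all 3 tumours by unequal amounts, with the adjusted p in brackets, were Cdkn1a (0.000322), Nes (0.00109), Fxyd7 (0.00183), Junb (0.00183), Cxcl1 (0.00401), Gadd45b (0.0043), Unc5a (0.00997), Hspa2 (0.0101) and Plk3 (0.012). To these belonged Slit2 (0.0131), Tubb2a (0.0132), Rpl13 (0.0145), H1f1 (0.0178), Tnfrsf10b (0.0194), Sv2a (0.0217), Ier3 (0.0243), Nup62cl (0.0249) and Hspa1a (0.0298). To these belonged Eno2 (0.0314), Hdac1 (0.0337), Itga7 (0.0395), Copz2 (0.0416) and Il1b (0.0448). Genes lower in all 3 tumours by unequal amounts were Ccnd1 (0.000786), Nrxn2 (0.000889), Rab33a (0.0015), Rcor2 (0.00172), Nefh (0.00281), U2af2 (0.00726), Olig3 (0.00879), Ccnc (0.00979) and Ubtf (0.0106). The same held for Prom1 (0.0112), Usp18 (0.017), Hdac9 (0.0229), Hmgcs1 (0.0284), Irgm2 (0.032), Sesn1 (0.032), Oas1b (0.0322), Vars (0.0366) and Tgfb2 (0.0372). The same held for Gja1 (0.0398), Mthfd1l (0.0442), Mbd3 (0.0479) and Parp12 (0.0483). Genes whose sign at 12 h was not the same in all tumours were Rassf4 (0.000125), Id2 (0.000208), Sting1 (0.00495), Cmpk2 (0.00583), Gabra5 (0.00785), Herc6 (0.0172) and Mir18 (0.0402). Why tumours differed was not tested.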

How the results depend on the processing

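At 12 h the number of calls stayed within 1.5 times of 6928 under every alternative but the one with no replicate block (3395): it ran from 5294 to 5854 without a tumour, from 5895 to 6530 without a single array of 12 h, was 5461 with the 12 h arrays alone and 7303 with arrays centred on the reference genes. At 6 h it was 6333, and 2948 with no replicate block. For the change of the effect between times, 2 calls became 0 with no replicate block, 8 after quantile normalization (5 more positive at 12 h) and 0 to 5 without a tumour. For DMSO at 12 h against 6 h, 58 calls became 28 without the mean-variance trend, 4 with no replicate block, 23 with the tumour as a random replicate block and 13 to 41 without a tumour. For the tumour term 812 calls became 162 without the trend. The cause of these shifts was not tested, save that dropping a tumour leaves fewer arrays. Of interferon-stimulated genes 24 to 32 were called lower under all alternatives run, and of mitosis genes 19 to 30. The 12 h difference of Atoh1 ran from -0.45 without MP567 to 0.46 without MP525, and that of Hsd11b2 from -1.24 without MP570 to 0.39 without MP525, the tumour in which both were bright. With the mean of its probe sets Hspa8 had 0.17 and passed. Of the 358 named genes called at 12 h, 269 kept call and direction with no replicate block, and 329 to 356 under the other alternatives on the full filter. Pairing by tumour is in the main model. The number of arrays limits which small differences could pass, and genes near the arrays' 25th percentile have poorly measured falls.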

Other observations

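Small RNA genes were looked at after their values were seen. Of 37 tested genes between Dlk1 and Dio3, the imprinted region on chromosome 12 that holds Rian, 17 were called higher at 12 h and 0 lower, against 18.6% and 18.5% of all genes. They were 12 of 27 microRNA genes, 4 of 4 small nucleolar RNA genes and Rian. Elsewhere in the genome 21 of 243 tested microRNA genes were called higher and 22 lower, and of 74 small nucleolar RNA genes 24 higher and 11 lower. Of the 17, 6 lay under the array's 25th percentile on all 3 DMSO 12 h arrays, so the size of their rise is poorly measured. Genes bright only with LBH589 had to differ to be tested, and the counts are a description. The small nucleolar RNA gene AF357425 read 6.89, 6.44 and 7.69 in DMSO and 10.32, 8.70 and 10.84 in LBH589 and rose by 2.94 ± 0.18, and the microRNA gene Mir453, with 1 DMSO array under the 25th percentile, rose by 2.15 ± 0.18 (adjusted p = 1.08e-07 and 1.49e-06). Meg3, the noncoding RNA at the start of the same maternal cluster, had 0.0063, and the protein-coding genes at its ends, Dlk1 and Dio3, had -0.24 and -0.26; none of the 3 passed the limma test. Genes of this region may lie on shared transcripts and are not independent.

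The microRNA cluster of Mir17 on chromosome 14, a target of MYC known for promoting growth, was lower in part. Mir19a and Mir20a were called lower by 1.79 ± 0.26 and 0.54 ± 0.16 (adjusted p = 0.00011 and 0.0186), but all 3 LBH589 arrays of each lay under the 25th percentile. Mir18 was called lower by 0.83 ± 0.21 (adjusted p = 0.00719) with differences of -1.17, 0.068 and -1.37 in MP525, MP567 and MP570, so MP567 did not share its fall, while Mir17 had -0.42 and did not pass (adjusted p = 0.0868). A probe set for such a gene covers a short stretch of the precursor and does not tell mature arms apart, so no level of a mature microRNA was measured. The mature sequences are shown from RefSeq (GRCm38.p6) to let the family be read, with the seed, bases 2 to 8, in capitals; miR-17-5p and miR-20a-5p share the same seed.
miR-17-5p: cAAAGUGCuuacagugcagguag
miR-20a-5p: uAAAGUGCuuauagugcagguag
miR-18a-5p: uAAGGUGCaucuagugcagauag
miR-19a-3p: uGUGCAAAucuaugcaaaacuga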
